A study of Schizosaccharomyces pombe with 4 samples.

Results

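Cohesin subunits were followed in vegetatively growing fission yeast, Schizosaccharomyces pombe, with and without the gene red2. The members were all array features whose deposited description held the word cohesin, rad21 or rec11, and there were 5 of them, at 4 loci, among 4997 array features on the 3 chromosomes. They were a long and a short feature of rec11, a feature described as a double-strand-break repair protein rad21, a homologue of the Smc1 subunit of the 14S cohesin of Xenopus, and a feature described as cohesin with no further name. The groups were a wild type, strain FY12806, and a red2∆ strain, SP744, with 2 arrays each, both grown logarithmically in the rich medium YEA at 30 °C. The labels give no other allele, mating type or marker of either strain, and do not say if each array had its own culture. The p-values therefore cover just the variation among the arrays of a group, which may be technical. In the column headers the wild-type arrays share 1 number code and the deletion arrays another; what the code stands for is not stated, and anything that goes with it cannot be told apart from the genotype. Deletion replicate 2 is labelled as lacking red3 in its description and as red2∆ in its other labels, so values are also given without it where that matters.

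Cohesin is a ring-shaped protein complex that holds sister chromatids together from replication until anaphase. A pair of SMC proteins, Psm1 and Psm3 in fission yeast, forms the arms of the ring, a kleisin subunit closes it, and an accessory subunit binds the kleisin. In vegetative cells the kleisin is Rad21 and the accessory subunit Psc3, while in meiosis Rec8 largely takes the place of Rad21, and Rec11 that of Psc3 along the chromosome arms. Fission yeast cells growing vegetatively are known to remove many meiotic messages that are transcribed at the wrong time, with the help of the RNA-binding protein Mmi1 and of Red1 and its partners.

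The names of the features rest on different evidence. The word smc1 is a synonym of psm1 in the RefSeq gene table (assembly ASM294v3), which places psm1 on the same chromosome as the Smc1 homologue, and that feature is called psm1 here. The feature described as cohesin lay on chromosome II between features described as the d chain of mitochondrial ATP synthase and as subunit 1 of the origin recognition complex. In the RefSeq table the gene between atp7 and orc1 on chromosome II is rec8, and the feature is therefore called the cohesin feature at rec8. No column of the array files names it rec8. The RefSeq table holds a single rec11 gene, whereas the array carried 2 overlapping rec11 features. The subunits psm3 and psc3 are in the RefSeq table, but 0 array descriptions held their symbols or synonyms, and they were not analysed here.

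All 5 cohesin features were higher in the red2 deletion than in wild type, and the meiotic subunits were raised most. The fold difference was 5.36 for the long rec11 feature, 3.30 for the cohesin feature at rec8 and 2.96 for the short rec11 feature. The mitotic kleisin rad21 rose 1.91-fold and the SMC subunit psm1 rose 1.39-fold. These 2 were also brighter in wild type, with mean log2 intensities of 14.41 and 14.16. The means were 10.80 to 11.88 for the rec11 features and the cohesin feature at rec8. Differences can be compressed at high intensity, and the part of brightness in this order was not tested. Each of the 5 passed the test (limma, Benjamini-Hochberg adjusted p under 0.05 over all 4997 features, 2 arrays per group). Of all features, 34.0% were called higher by the same rule, against which the 5 of 5 are to be read. The groups did not overlap for any of the 5, and 43.4% of all features likewise had both deletion arrays above both wild-type arrays. The members with at least 2-fold higher values and no overlap between groups numbered 3 of 5, both rec11 features among them, against 2.72% of all features. In bulk RNA, a change in every cell and a change in the share of cells that express a gene cannot be told apart.

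The accessory subunit rec11 showed the largest difference of the members. Its long feature (chromosome III, 1227770 to 1230824, a coding feature of 3055 bp with any introns) had deposited intensities of 3870 and 3680 on the wild-type arrays against 19750 and 20715 on the deletion arrays, as the mean over 2 blocks of values on the log2 scale. On that scale the values were 11.92 and 11.85 in wild type against 14.27 and 14.34 in the deletion, with group means of 11.88 ± 0.05 and 14.30 ± 0.05 (SD, n = 2). Both deletion arrays lay far above both wild-type arrays, and arrays of a group differed by less than 0.1. This made a log2 fold change of 2.42 ± 0.06 (limma SE, adjusted p = 7.26e-06), and the 95% interval of the fold ran from 4.88 to 5.89. By size of increase the feature held rank 11 of the 4997.

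The short rec11 feature spans 284 bp (chromosome III, 1227585 to 1227868) and shares 99 bp with the long one, which is 34.9% of the short and 3.24% of the long feature. Its intensities were 1770 and 1800 in wild type against 5049 and 5546 in the deletion, again without overlap. Its log2 fold change was 1.57 ± 0.06 (limma adjusted p = 3.65e-05), with a 95% interval of the fold from 2.67 to 3.29 and rank 49 of 4997. The 2 rec11 features thus rose together, but the intervals of their folds did not overlap. They share sequence and are not independent measurements of the gene, and the difference between their folds was not tested.

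The cohesin feature at rec8, the position of the meiotic kleisin, covers 1873 bp (chromosome II, 2528016 to 2529888). It stood at intensities of 2727 and 2839 on the wild-type arrays against 9422 and 8939 on the deletion arrays. On the log2 scale these were 11.41 and 11.47 against 13.20 and 13.13, so the spread within each group was small beside the distance between groups. Its increase on the log2 scale was 1.72 ± 0.05 (limma adjusted p = 2.07e-05), the 95% interval of the fold ran from 3.01 to 3.62, and the rank was 36 of 4997. The log2 interval, 1.59 to 1.86, overlapped that of the short rec11 feature, 1.42 to 1.72, so these neighbours in the order of fold changes are not separated by their errors.

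The mitotic kleisin gene rad21 (chromosome III, 1346991 to 1348957), whose protein is also needed for the repair of DNA breaks, rose by less. Its intensities were 20442 and 23257 in wild type against 44971 and 38631 in the deletion. The groups did not overlap, but the arrays within each group lay further apart than for any other member, with SDs of 0.13 and 0.16 on the log2 scale (n = 2). Its increase was 0.93 ± 0.10 on the log2 scale (limma adjusted p = 0.000453), and the 95% interval of the fold, 1.62 to 2.25, includes 2. The deletion values of 15.46 and 15.24 on the log2 scale come near the highest value of any feature on those arrays, 15.96 and 15.97, where differences can be compressed.

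The SMC subunit psm1 (chromosome II, 2499821 to 2503522), which is shared by mitotic and meiotic cohesin, changed least. Its intensities were 18406 and 18202 in wild type against 26436 and 24637 in the deletion, and the groups did not overlap. Its log2 fold change was 0.48 ± 0.06 (limma adjusted p = 0.000696), with a 95% interval of the fold from 1.27 to 1.53 and rank 705 of 4997. With the trend of fold change with gene length removed, the log2 fold change fell to 0.15 and the adjusted p rose to 0.0379. Features between 3000 and 5000 bp long, as psm1 is with 3702 bp, had a median log2 fold change of 0.28, and 66.2% of those 278 features were called higher.

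**Figure D1:**
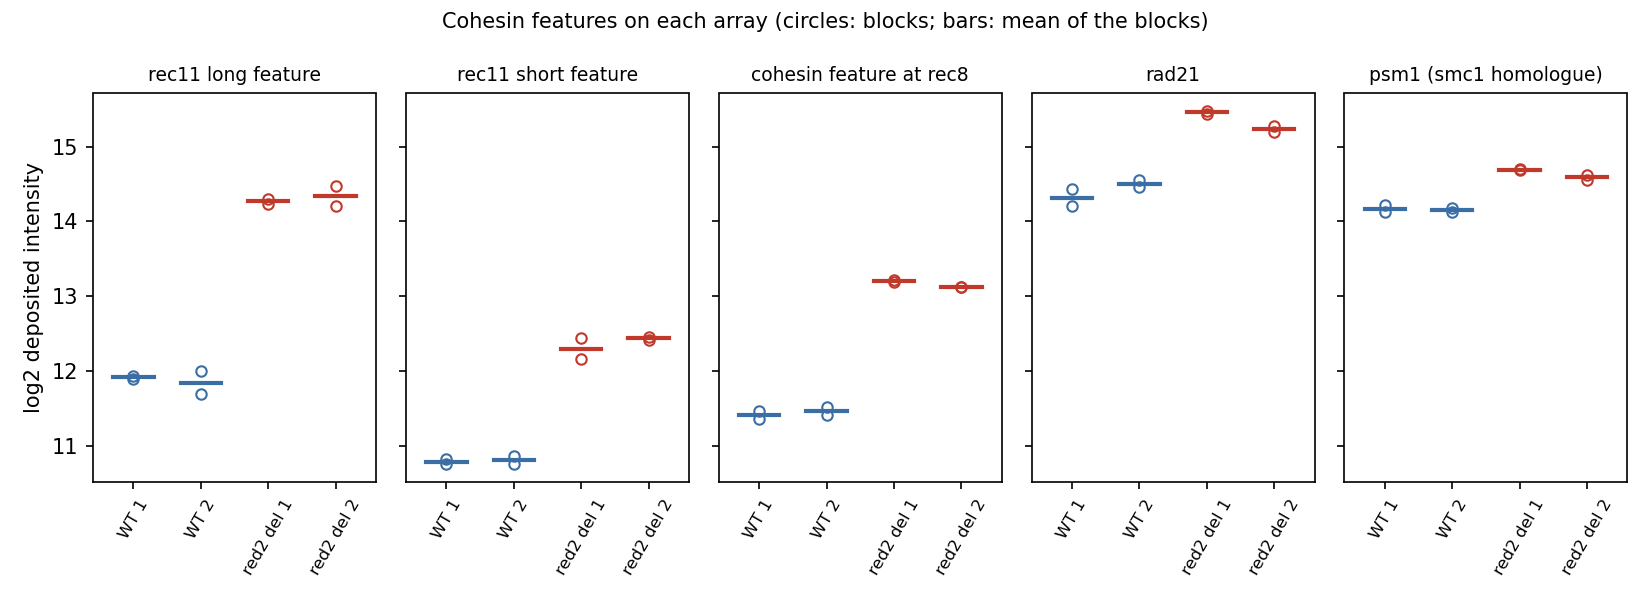
The log2 deposited intensity (vertical axis) of the 5 cohesin features on each of the 4 arrays (horizontal axis; wild type in blue, red2 deletion in red), with circles for the 2 blocks of values and bars for their mean. Deletion arrays lie above wild-type arrays in every panel, from 11.92 and 11.85 to 14.27 and 14.34 for the long rec11 feature, while heights are not comparable between panels because each feature has its own probes.

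By fold change the long rec11 feature came first, followed by the cohesin feature at rec8 and the short rec11 feature, whose intervals overlapped, then by rad21 and last by psm1. The 95% intervals of the log2 fold change did not overlap between the long rec11 feature (2.29 to 2.56) and the cohesin feature at rec8, between the short rec11 feature and rad21 (0.70 to 1.17), or between rad21 and psm1 (0.34 to 0.62). These intervals describe each feature against its own error, and no test was made between features. With the length trend removed, the short rec11 feature (1.83) stood above the cohesin feature at rec8 (1.53), below the long rec11 feature (2.10).

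The 2 blocks of an array gave the same picture. In the authors' deposited table of ratios of deletion to wild type, which gives 1 ratio for each block and replicate number, the 4 ratios ran from 5.06 to 5.69 for the long rec11 feature and from 3.04 to 3.55 for the cohesin feature at rec8. They ran from 2.65 to 3.15 for the short rec11 feature in the authors' deposited table. The ratios for rad21 in the authors' deposited table ran from 1.64 to 2.35 and those for psm1 from 1.29 to 1.48. For rad21, both blocks of replicate 1 gave over 2-fold (2.35 and 2.06) and both blocks of replicate 2 less than that (1.68 and 1.64) in the authors' deposited table. Without deletion replicate 2, the array with the conflicting label, the log2 fold change of rad21 was 1.04, and without deletion replicate 1 it was 0.83.

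**Figure D2:**
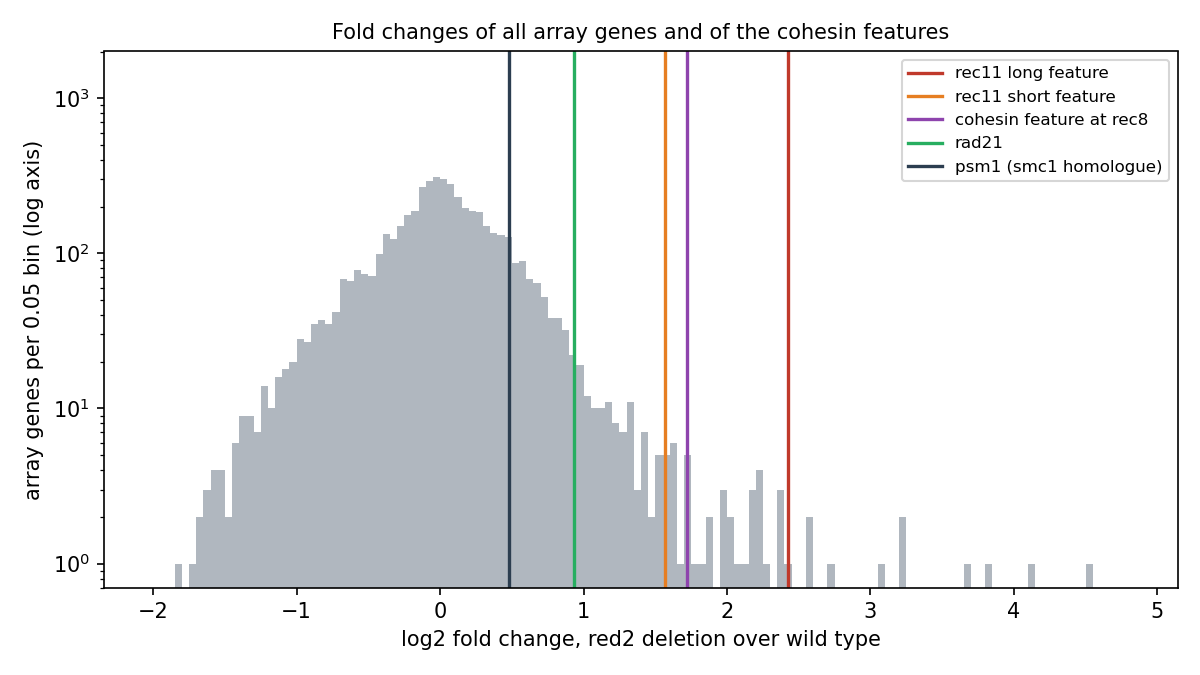
The number of array features (vertical log axis) in bins of 0.05 of the log2 fold change of red2 deletion over wild type (horizontal axis), with vertical lines for the cohesin features. A single feature that was lost in the deletion lies to the left of the range drawn, and the long rec11 feature at 2.42 lies far in the upper tail while psm1 at 0.48 lies within the bulk.

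Fold change rose with feature length across all features (Spearman rho = 0.44, over 4997 features of the same 4 arrays that are not independent replicates), and the members differ in length from 284 to 3702 bp. The median log2 fold change was -0.30 for the 101 features of up to 300 bp, the class of the short rec11 feature, and 0.05 for the 2076 features over 1000 and up to 2000 bp, the class of rad21 and of the cohesin feature at rec8. The short rec11 feature rose by 1.57 in a class whose median was lower than 0, and it stood at 1.83 with the trend removed. With the trend removed rad21 stood at 0.72 (limma adjusted p = 0.000762). What produces the trend was not tested.

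**Figure D3:**
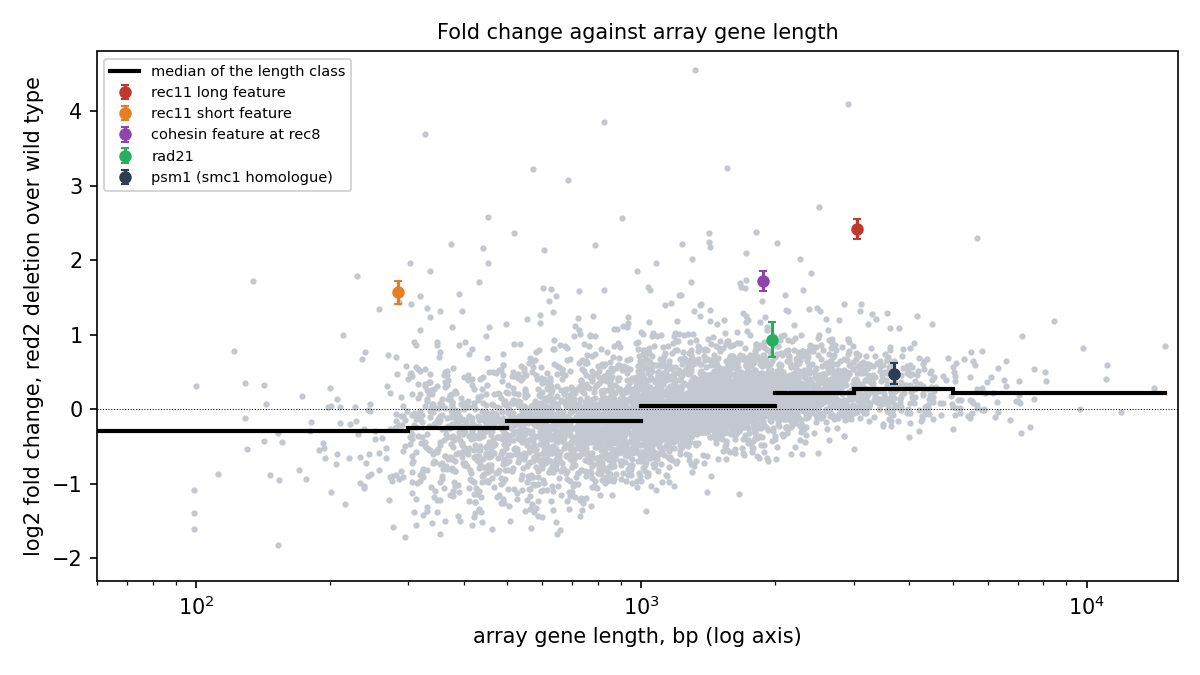
The log2 fold change of red2 deletion over wild type (vertical axis) against the length of each array feature in bp (horizontal log axis), with grey points for all features but the lost one, black bars for the median of each length class and coloured points with 95% intervals for the cohesin features. The long and short rec11 features and the cohesin feature at rec8 lie far above the medians of their length classes (0.28, -0.30 and 0.05). Some features close in length to the cohesin feature at rec8 lie higher than it, such as an RNA-binding protein gene of 1807 bp at 2.38. The psm1 feature at 0.48 lies near the median of its class, 0.28.

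Calls among the features next to the cohesin loci are read against the 34.0% of all features called higher and the 29.8% called lower. Within 10 kb on either side of rec11 lay 8 other features, of which 2 were called higher, 2 lower and 4 did not pass the test, with log2 fold changes from -0.48 to 0.49. The nearest of them were a hypothetical C2H2-type zinc-finger protein, 678 bp from the short feature, at -0.20 ± 0.05 (limma adjusted p = 0.019), and the cyclin gene cig1, 619 bp from the long feature, at 0.49 ± 0.05 (limma adjusted p = 0.000409). Around the cohesin feature at rec8, 2 of 8 features were higher, 3 lower and 3 not past the test, from -0.72 to 0.29. The counts were 2 higher, 1 lower and 4 not past of 7 around rad21, and 1, 2 and 5 of 8 around psm1. The features adjoining the cohesin feature at rec8, for the ATP synthase d chain and the origin recognition complex, stood at 0.05 ± 0.06 and 0.29 ± 0.05. The latter passed the test (limma adjusted p = 0.00273).

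The loci of rad21 and psm1 each had a strongly changed feature close by. A hypothetical protein of 354 bp that lies 1469 bp from rad21 fell by 1.67 on the log2 scale (SE 0.10, limma adjusted p = 9.1e-05), from 11.67 and 11.66 to 9.85 and 10.15. On the other side of rad21, 335 bp away, the F-box protein gene pof3 stood at 0.02 ± 0.05. The raised features near rad21 were a trichothecene acetyltransferase pseudogene, at 0.59 ± 0.06, and a glutamate dehydrogenase gene, at 0.35 ± 0.06. An RNA-binding protein gene 2715 bp from psm1 rose by 2.38 ± 0.06 (limma adjusted p = 7.52e-06), while the chromatin assembly factor gene between them fell by 0.33 ± 0.06 (limma adjusted p = 0.00535). The exonuclease I gene on the other side of psm1 stood at -0.09 ± 0.05 and did not pass the test. Over their 10 kb windows the median log2 fold change was 0.05 for rad21 and -0.02 for psm1, against 0.01 over all features.

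**Figure D4:**
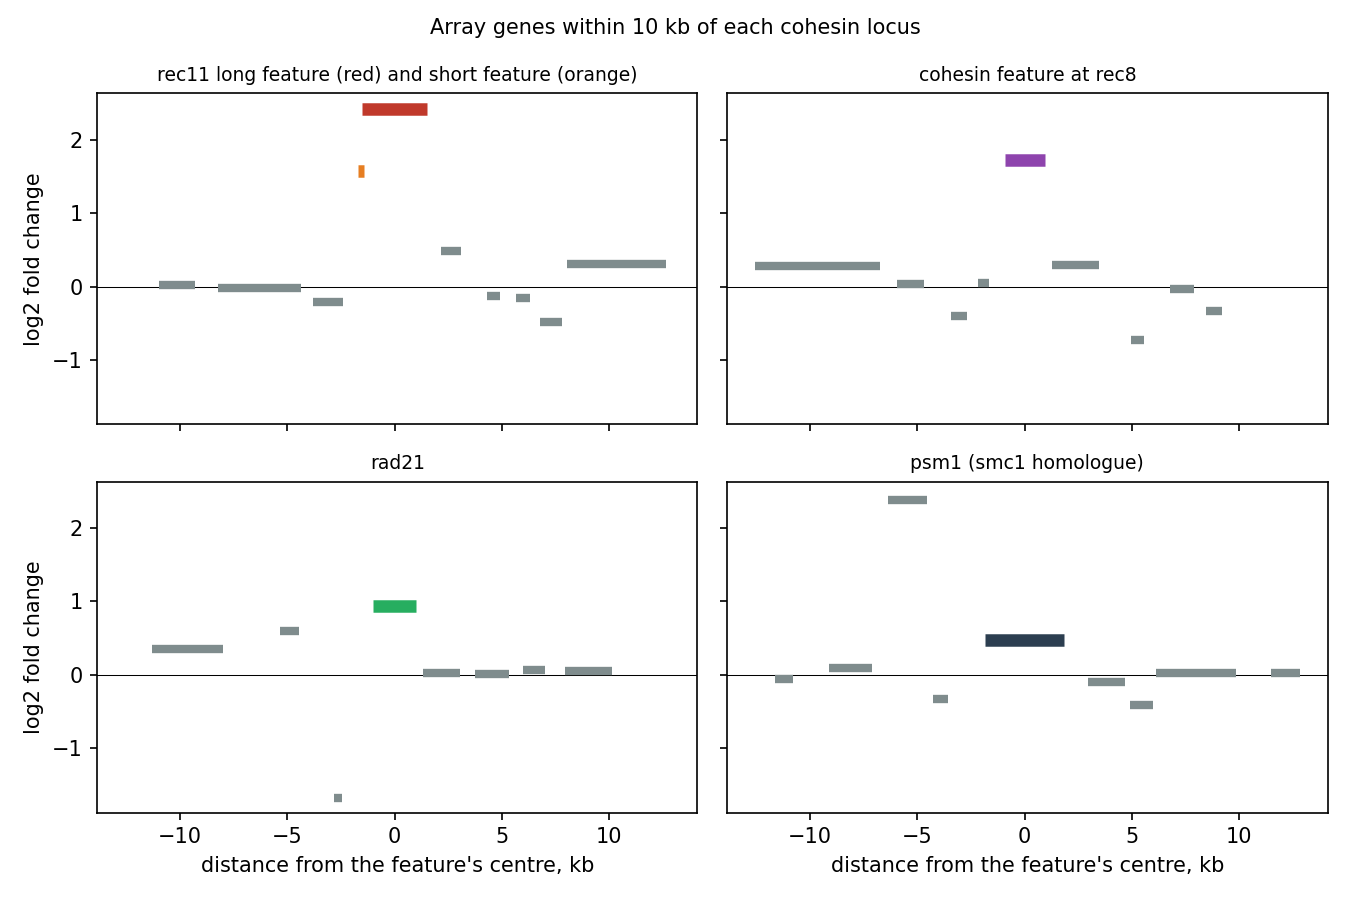
The log2 fold change (vertical axis) of array features within 10 kb of each cohesin locus against distance from the centre of the cohesin feature in kb (horizontal axis), with the cohesin features in colour, their neighbours in grey and bars as long as the features. Apart from the RNA-binding protein gene near psm1, at 2.38, the neighbours lie below the cohesin feature of their panel.

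The features with the pattern most like that of the long rec11 feature, by the Euclidean distance over the 4 arrays of log2 values less the wild-type mean, lay at other loci, but 1 of them is the neighbour of psm1. They were, in order, this RNA-binding protein gene (distance 0.10), a regulator of premeiotic DNA synthesis (0.14, log2 fold change 2.37 ± 0.07), a heavy chain of cytosolic dynein (0.23, 2.30 ± 0.06), a WD repeat protein (0.26, 2.56 ± 0.06) and a feature described as a degraded permease (0.27, 2.24 ± 0.06). The measure follows mainly the size of the increase, since there were 2 groups. By the same measure the cohesin feature at rec8 came at place 27 and the short rec11 feature at place 43. rad21 came at place 159.

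Other genes of chromosome cohesion and segregation moved less than the meiotic subunits, but they were also brighter. Their wild-type means ran from 12.40 to 15.58 on the log2 scale, against 10.80 to 11.88 for the rec11 features and the cohesin feature at rec8. Differences can be compressed near the top of the range, and the part of brightness in this contrast was not tested. A list of 17 features was drawn from descriptions that name cohesion, condensin, SMC proteins, chromosome segregation or known genes of these processes. Of these, 9 were called higher (52.9%, against 34.0% of all features), 3 were lower (17.6%, against 29.8%) and 5 did not pass the test. Their median log2 fold change was 0.22, against 0.01 over all features. At least 2-fold higher values without overlap between groups were seen in 0 of the 17, against 2.72% of all features. With so small a share over all features, this count does not set the list apart. Most features of the list were over 2000 bp long. The share of all features called higher was 57.4% from 2000 to 3000 bp and 66.2% from 3000 to 5000 bp. It was 52.3% over 5000 bp. With the length trend removed 7 of the list were higher and 4 lower, where 28.6% of all features were higher and 35.2% lower.

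Of the list members known to act on cohesin, a feature similar to yeast Pds5, which binds the ring and controls its stability, had log2 values of 12.44 and 12.49 in wild type against 13.28 and 13.32 in the deletion, and rose by 0.84 ± 0.05 (limma adjusted p = 8.97e-05), and by 0.51 with the length trend removed. The level of mis4, which encodes a subunit of the cohesin loader, rose by 0.50 ± 0.06 (limma adjusted p = 0.000604), and by 0.17 with the trend removed. The level of cut1, which encodes the separase that cuts the kleisin at anaphase, rose by 0.59 ± 0.06 (limma adjusted p = 0.000518), and by 0.25 with the trend removed. Its inhibitor, the securin gene cut2, a short feature of 516 bp, stood at 0.08 ± 0.07 and did not pass (limma adjusted p = 0.368). The cut2 feature passed with the trend removed (log2 0.33, limma adjusted p = 0.0131) and once deletion replicate 2 was left out (log2 0.17). Without deletion replicate 1 it stood at -0.007 on the log2 scale, with quantile normalization at 0.01 and with median centring at 0.02.

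Condensin, the related complex that compacts chromosomes, was raised in part. The SMC subunit gene cut3 rose by 0.53 ± 0.06 (limma adjusted p = 0.000626), and 2 features described as condensin subunits, on chromosomes II and III, rose by 0.54 ± 0.06 and 0.61 ± 0.06. With the trend removed they stood at 0.19, 0.22 and 0.36, all past the threshold. The other SMC subunit gene, cut14, stood at 0.11 ± 0.05 and did not pass the test (limma adjusted p = 0.0803), and was called lower with the trend removed (log2 -0.21, adjusted p = 0.0105). The repair gene rad18, which encodes an SMC protein of yet another complex, rose by 0.51 ± 0.08 (limma adjusted p = 0.00234), a call lost with the trend removed (log2 0.18, adjusted p = 0.0987).

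The remaining members of the list that the rule names were a chromo domain protein of centromeric silencing, which rose by 0.32 ± 0.06 (limma adjusted p = 0.00371; log2 0.01 with the trend removed), mal2, a kinetochore gene, and a putative chromosome segregation protein on chromosome I. The level of mal2 fell by 0.53 on the log2 scale (SE 0.05, limma adjusted p = 0.000352) and by 0.42 with the trend removed. The putative segregation protein fell by 0.21 on the log2 scale (SE 0.05, limma adjusted p = 0.0124), a call lost without wild-type replicate 1 (adjusted p = 0.108) or replicate 2 (0.0515), with the second block alone (0.166) and at a threshold of 0.01. The remaining feature of the list that was lower, named after its value was seen, was a putative SMC family protein at -0.16 ± 0.05 (limma adjusted p = 0.0376). That call was lost without either wild-type array, without deletion replicate 1, with either block alone (limma adjusted p = 0.0626 and 0.147) and at a threshold of 0.01. The remaining feature called higher, also named afterwards and similar to yeast Ctf4, stood at 0.22 ± 0.07 (limma adjusted p = 0.0286). This call was lost with quantile normalization (limma adjusted p = 0.0555), median centring (0.0692), the second block alone (0.0752) and a threshold of 0.01. It was also lost without wild-type replicate 1 (log2 0.19) and without deletion replicate 2 (log2 0.15), the array with the conflicting label. The Ctf4-like feature stood at -0.07 with the length trend removed, and at 0.15 to 0.30 with single arrays left out.

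Each array reported values for all features, with median intensities from 21232 to 22158, and arrays of a group correlated across features with r = 0.997 and 0.996, against 0.934 to 0.945 between groups. The name red2 is not tied to an array feature by the sources used here, so the loss of red2 itself was not checked. The 1 feature that was lost in the deletion, picked by its lowest fold change, was a hypothetical protein rich in serine and proline on chromosome I. Its log2 values were 14.93 and 15.05 on the wild-type arrays against 5.39 and 4.75 on the deletion arrays. Of 12 features described by the words mating-type, M-factor or P-factor, 7 were higher (34.0% of all features were), 3 lower (29.8% of all) and 2 not past the test. The 3 lower were M-factor precursors 2 and 3 (log2 -0.94 and -0.45) and the M-specific polypeptide Mc (-0.59). Those higher included the P-factor precursor (0.41) and M-factor precursor 1 (0.28), but also a silencing gene, clr4 (0.60), and a switching gene, swi4 (0.38). The summed intensity of the 12, which pools these directions, was 89508 to 90814 in wild type against 104734 to 107369 in the deletion. The brightest of them, a putative pheromone response and mating-type determination gene, weighs most in the sum. It had log2 values of 15.16 and 15.13 in wild type against 15.44 and 15.41 in the deletion. The part of these 12 features in the results was not tested. Of 7 features described by spores or sporulation, 2 were higher, 2 lower and 3 not past the test, to be read against the same shares, with sums of 128322 to 129965 in wild type against 124076 to 131070 in the deletion.

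**Figure D5:**
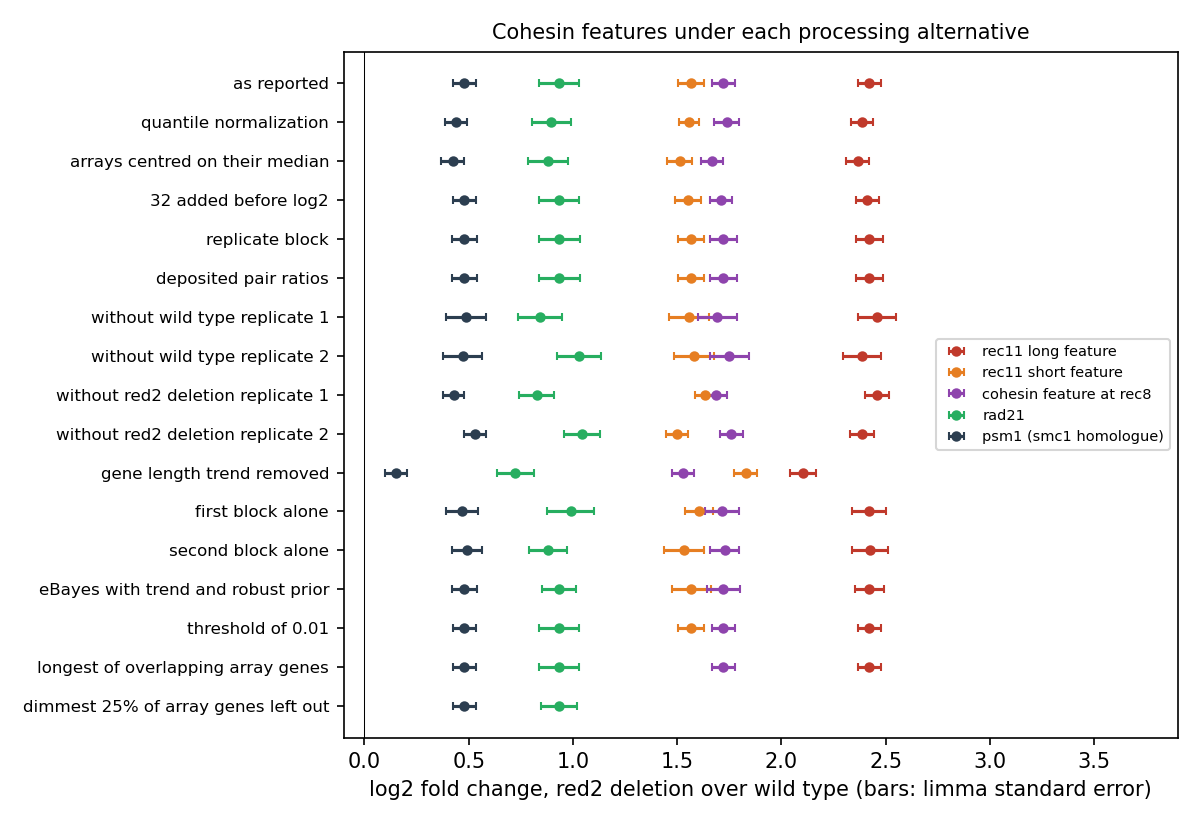
The log2 fold change of red2 deletion over wild type with limma's standard error (horizontal axis) for each cohesin feature (colours) under each way of processing the values (vertical axis, one line per setting). The long rec11 feature stays between 2.10 and 2.46 and rad21 between 0.72 and 1.04, while psm1 moves from 0.48 to 0.15 once the trend with feature length is removed.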

How the data were processed

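Total RNA was labelled with Cy3 and hybridised to 1-colour NimbleGen arrays, per the labels' protocols. The authors deposited each intensity on a linear scale, processed with RMA as named in the submitters' processing notes. Not given in the sources used here are its version and steps, the genome build and the meaning of the 2 blocks. Coordinates are printed as deposited. The authors' deposited table also gives a ratio (fold), deletion over wild type, equal to the intensities' quotient.

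The mean log2 value of the blocks was tested with limma 3.58.1 in R 4.3.3 (lmFit, eBayes, genotype as the only term, two-sided, Benjamini-Hochberg over 4997 features, threshold 0.05). No filter or pseudocount was used. An exact permutation test of 2 against 2 arrays cannot go below p = 0.333. On simulated data with independent noise at the fitted variances and no length trend, 100% of 50 features changed 1.5-fold, of 4997, were recovered. That run checks the procedure and does not measure its power on these arrays. The number of arrays limits the precision.

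All cohesin features and up to 10 list members with the smallest p were named, with 5 features most like rec11. The members and lists were chosen with earlier results of these data known. Alternatives were quantile normalization, median centring, leaving out the dimmest 25% of features, adding 32 before log2, a replicate block, deposited ratios, single blocks, each array left out, the length trend removed (loess, span 0.5), the longest of overlapping features, a trend and robust prior, and a threshold of 0.01. Same-numbered arrays did not deviate together (r = -0.04).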

Additional observations from a re-analysis of the deposited data

How the results depend on the processing

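All 5 cohesin features kept their direction and their call under every alternative in which they were tested, the replicate block included, which left the log2 fold change of the long rec11 feature at 2.42. The values ran from 2.10 to 2.46 for the long rec11 feature, 1.53 to 1.76 for the cohesin feature at rec8, 1.5 to 1.83 for the short rec11 feature, 0.72 to 1.04 for rad21 and 0.15 to 0.53 for psm1. Leaving out the dimmest 25% of features kept only rad21 and psm1, and keeping the longest of overlapping features left out the short rec11 feature. The count of list members called lower, 3, fell to 1 with the second block alone and with a threshold of 0.01, and ran from 1 to 3 when single arrays were left out; the cause was not tested. The list members called higher ran from 6 to 9, the 6 being of the 12 that remained with the dimmest 25% left out. Across the settings 1303 to 1769 features were called higher and 1088 to 1788 lower, against 1699 and 1487. The lowest counts, 1303 and 1088, came from leaving out the dimmest 25%, where only 3748 features were tested. Where 1 array was left in a group, its spread was taken from the other group. The main test did not pair arrays by replicate number, and whether the shared numbers mark pairs is not known.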
